A study of Mus musculus with 4 samples.

Results

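The replication-dependent histone genes encode the linker histone H1 and the core histones H2A, H2B, H3 and H4 that package newly made DNA. They were taken from the gene symbols of the count tables, which use the newer histone names. Taken were H1f1 to H1f5 and every symbol that begins with H2ac, H2bc, H3c or H4c and a digit. Symbols containing -ps were left out. H2ac14, which RefSeq annotates as a pseudogene, has no such symbol and was kept among the H2A genes. This gave 63 genes of the 49997 symbols in the tables, with 5 H1, 18 H2A, 16 H2B, 12 H3 and 12 H4 genes. The cells were wild-type mouse iMOP cells, an immortalized line of multipotent otic (inner ear) progenitors, grown as 2 proliferating cultures and 2 cultures of neurons derived from the line. Proliferating cells were kept in DMEM/F12 with B27, carbenicillin and basic FGF at 20 ng/ml, and neurons in Neurobasal medium with N21, L-glutamine and 1 µM K03861, which inhibits CDK2, a kinase that drives cells into S phase. Medium, growth factor and inhibitor therefore differed between the groups together with the cell state, and their effects cannot be told apart. Whether the 2 cultures of a group were grown independently of each other is not stated beyond the words biological replicate. The p-values rest on the spread between the 2 libraries within each group, moderated over all genes tested. They may not reflect the spread between independent cultures.

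Histone genes of this kind are switched on as cells enter S phase, when chromatin must be assembled on both daughter DNA strands, and are switched off again when replication ends. NPAT, a substrate of CDK2, activates their transcription in nuclear bodies that form at the histone gene clusters. Their messengers have no introns and mostly no poly(A) tail: they end in a short stem-loop that is bound by the protein SLBP and cut with the help of the U7 small nuclear RNA. Replication-independent variants such as H3.3 and H1.0 are instead made from polyadenylated messengers throughout the cell cycle and in cells that have stopped dividing. Libraries from total RNA after removal of ribosomal RNA, as used here, can count messengers without a poly(A) tail.

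The 63 genes lay in clusters on the mouse build GRCm38 (mm10). The smaller cluster held 10 of them within chr3:96219885-96270192. The other 53 lay on chromosome 13 in a pair of stretches, chr13:21715711-22043658 and chr13:23531044-23934913. All 63 could be matched to a GENCODE M21 transcript, and a 16-base histone stem-loop (GGC, any base, CTTTT, any base, AG, any base and GCC, read on the transcript strand) was present in the transcripts of 38. Many of the other gene models stop short of the end of the messenger, so a missing match says only that the motif is not in these sequences. The 6 sites below show the forms of the loop that were found, for abundant genes or for genes described further on, with the stem-loop in capitals.
H1f4: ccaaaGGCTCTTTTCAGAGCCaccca
H2ac18: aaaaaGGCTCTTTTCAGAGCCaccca
H2bc3: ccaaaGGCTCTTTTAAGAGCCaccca
H4c4: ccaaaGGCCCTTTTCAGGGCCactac
H4c14: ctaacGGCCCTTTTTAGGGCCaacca
H2ac20: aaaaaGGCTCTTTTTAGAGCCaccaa
The form in H1f4 and H2ac18 was shared letter for letter by 24 genes, that in H4c4 by 6 and that in H2bc3 by 5. The form in H4c14 was also in H4c9, and the form in H2ac20 was in no other histone gene.

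The promoters of these genes also had letters in common. In the 250 bases before the start of 57 genes with a RefSeq promoter (GRCm38.p6), CCAAT was present on either strand in 47 (82.5%), against 33.8% of all 32851 promoters of the same length. TATAAA was present in 28 (49.1%, against 12.4%), and the octamer ATTTGCAT, a binding motif of POU factors such as OCT1, in 12 (21.1%, against 1.6%). The octamer was found in 6 of 17 H2A and 6 of 14 H2B promoters and in none of the H1, H3 and H4 promoters, while CCAAT was in all H1, H2A and H2B promoters but in 3 of 11 H4 promoters. Windows of neighbouring H2A and H2B genes that face away from each other can overlap, so a single site can count for both genes. Both genes had the octamer in H2ac1 and H2bc1, H2ac8 and H2bc8, and H2ac12 and H2bc12, whose windows overlap. The promoters of 2 genes of the chromosome 3 cluster are given because the genes of that cluster moved together in the values that follow. That of H2bc18 (chr3:96269450-96269699, plus strand) holds CCAAT on both strands and the octamer, and that of H2ac18 (chr3:96245247-96245496, plus strand) holds CCAAT on both strands and no octamer. Capitals mark these motifs, CCAAT on the reverse strand reading ATTGG.
H2bc18: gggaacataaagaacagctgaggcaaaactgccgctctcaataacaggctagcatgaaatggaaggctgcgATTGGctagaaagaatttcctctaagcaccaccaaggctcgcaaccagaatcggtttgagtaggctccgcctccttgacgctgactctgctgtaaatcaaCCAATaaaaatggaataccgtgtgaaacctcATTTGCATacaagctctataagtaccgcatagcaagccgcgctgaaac
H2ac18: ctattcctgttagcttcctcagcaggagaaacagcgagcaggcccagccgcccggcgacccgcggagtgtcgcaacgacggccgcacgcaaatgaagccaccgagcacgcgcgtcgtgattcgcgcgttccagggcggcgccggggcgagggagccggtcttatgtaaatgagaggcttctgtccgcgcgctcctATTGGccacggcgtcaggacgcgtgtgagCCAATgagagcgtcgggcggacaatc

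The total count per library was 7446361 to 14484011, of which an 18S ribosomal RNA row took 53.3% and 59.4% in the proliferating and neuron replicate 1 libraries and 75.0% and 76.1% in the replicate 2 libraries. The replicate 2 libraries are also the ones titled set 2, so each comparison is also given within each pair of libraries with the same number. Levels are given as CPM, that is counts scaled to the library size with edgeR's TMM factors. Whether groups overlapped or separated was judged on this scale unless another is named. The labelled cell types were checked against markers. The summed level of 12 neuron markers was 162 and 350 CPM in proliferating and 202 and 365 CPM in neuron replicates 1 and 2. The groups overlapped in that sum, of which Tubb3 alone held 19.1 and 194 against 28.8 and 105 CPM. Among the 10 tested neuron markers, 2 had both neuron libraries above both proliferating ones (12.9% of all genes tested). For 0 of them both were below (14.5% of all genes), and 8 overlapped. The 12 otic progenitor markers summed to 1231 and 1062 CPM against 471 and 709 CPM. Myc alone held 1151 and 950 against 401 and 675 CPM of that sum, and the other 11 otic markers, with Pax2, Pax8 and Isl1 at 0 in every library, summed to 79.8 and 112 against 70.3 and 33.8 CPM, with both neuron libraries below both proliferating ones. Glial markers summed to 166 and 120 against 73.2 and 25.6 CPM, more than the otic markers other than Myc in 3 of the 4 libraries. Sums were 0.17 to 9.69 CPM for hair cell, 7.14 to 17.2 CPM for fibroblast and 0.14 to 0.41 CPM for male germ cell markers.

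Histone messengers were counted in both neuron libraries, and their sum there was above that of the proliferating library with the same number. In such bulk libraries a change in the share of cells in S phase and a change in histone messenger per cell cannot be told apart. The 63 genes held 0.801% of the counts other than 18S in proliferating replicate 1 (95% Wilson interval 0.792% to 0.810%, counting error only) and 1.01% in neuron replicate 1 (1.00% to 1.02%). They held 0.440% in proliferating replicate 2 (0.432% to 0.448%) and 0.655% in neuron replicate 2 (0.647% to 0.664%). Each neuron library was thus above the proliferating library of its own number, and both replicate 2 libraries were below both replicate 1 libraries. In summed CPM the levels were 2286 and 1547 in proliferating replicates 1 and 2 (mean 1917 ± 523, SD, n = 2) and 3280 and 2312 in neuron replicates 1 and 2 (2796 ± 684, SD, n = 2). The neuron sum was 1.43 times the proliferating sum in pair 1 and 1.5 times in pair 2, and both neuron libraries were above both proliferating ones, though neuron replicate 2 and proliferating replicate 1 were nearly equal. On the log2 scale the ratio of the group means was 0.54, and with library size alone in place of TMM, or with the deposited RPKM summed, it was 0.23 and 0.27 with overlapping groups. With 2 libraries against 2 an exact two-sided permutation test cannot give a p below 0.333, so the sums were not tested.

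**Figure D1:**
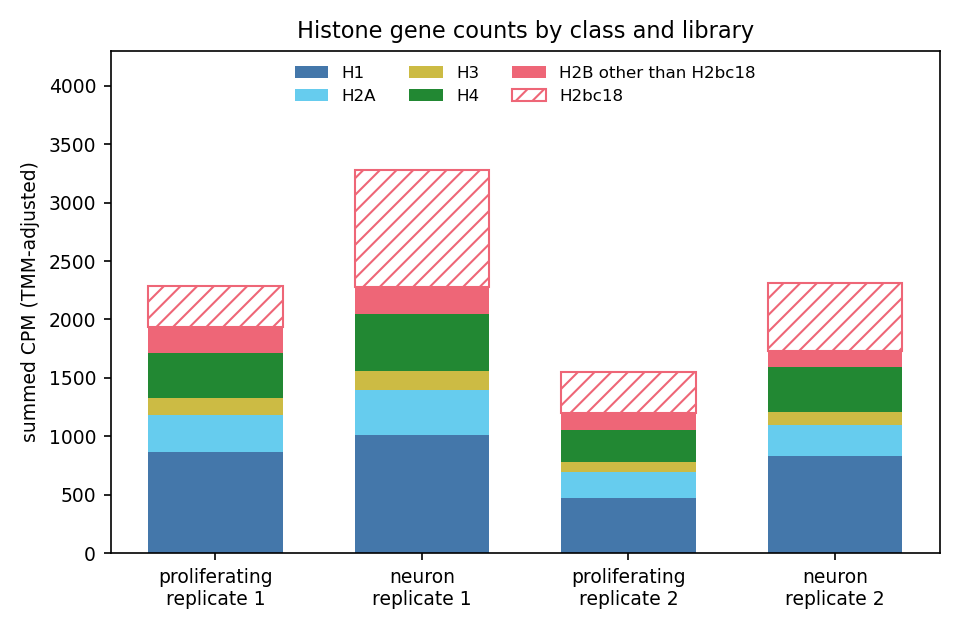
Summed CPM (TMM-adjusted) of the histone genes in each library, stacked by class, with H2bc18 hatched at the top. Totals were 2286 and 3280 in the replicate 1 libraries and 1547 and 2312 in the replicate 2 libraries, and H2bc18 took the largest single-gene part in all 4.

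Gene by gene, no histone gene passed the test between neurons and proliferating cells. The filter on low counts kept 56 of the 63 genes. The 7 left out (H2ac1, H2ac14, H2ac19, H2ac24, H2bc23, H3c14 and H3c15) had 17 counts or fewer in every library. In edgeR's quasi-likelihood test with Benjamini-Hochberg adjustment 0 of the 56 were called at an adjusted p under 0.05, and 0% of all 12783 genes tested were called. At an unadjusted p under 0.05 there was 1 histone gene, H2bc18, against 3.43% of all genes (0.915% higher and 2.51% lower in neurons). DESeq2 and limma on the deposited RPKM called none of the histone genes either. With the replicate number as a block, 3 of all genes (0.0235%) were called, none of them a histone gene, and 790 in place of 438 had an unadjusted p under 0.05.

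The fold changes of the tested histone genes lay mostly near 0, with TMM scaling more often on the positive side. The log2 fold change was above 0 for 38 of 56, against 52% of all genes tested, with a median of 0.14 (range -0.70 to 1.18) against 0.02 for all genes. Within pair 1 the median difference of neuron minus proliferating log2 CPM was 0.15 and within pair 2 it was 0.31, against 0.00 and 0.07 for all genes. Higher values in neurons in both pairs were found for 27 genes (28.8% of all genes tested), lower values in both pairs for 7 (25.5% of all genes), and the pairs disagreed for 22. The neuron libraries were both above the proliferating libraries for 9 of the 56 histone genes (12.9% of all genes tested) and both below for 3 (14.5% of all genes). Those 3 were H2bc4, H3c8 and H2bc13. The count of genes with both neuron libraries above was near this background. The median depended on which libraries entered: it was 0.57 and -0.13 when proliferating replicate 1 or 2 was left out, and -0.20 and 0.42 when neuron replicate 1 or 2 was. With library size alone it was -0.17, where the median of all genes was -0.27, and 16 of the 56 histone genes were above 0, against 28.4% of all genes tested. All 7 tested genes of chromosome 3 were among those 16.

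The replicate numbers separated the histone genes more evenly than the cell state did. In proliferating cells 50 of the 56 genes were lower in replicate 2 than in replicate 1, with a median difference of -0.61 in log2 CPM, and in neurons all 56 were lower, with a median of -0.58. Of all 12783 genes tested, 6533 in proliferating cells and 6376 in neurons were lower in replicate 2, with medians of -0.04 and 0.00. Neuron replicate 1 was the highest library for 37 of the 56 genes and proliferating replicate 2 the lowest for 35. The most frequent order, in 18 genes, was neuron replicate 1, proliferating replicate 1, neuron replicate 2 and proliferating replicate 2 from high to low. Highest library, lowest library and order were not counted over all genes tested. The share of 18S counts, which separated the libraries by number in the same way, was higher in the replicate 2 libraries, and its part in this difference was not tested.

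H1 genes stood among the most abundant members, and 1 of the 5, H1f4, separated the groups. The fold change was positive for all 5 with TMM scaling and for 3 with library size alone, where H1f3 and H1f1 were negative. H1 binds the linker DNA between nucleosomes. H1f4 had 216 and 145 CPM in proliferating replicates 1 and 2 and 292 and 268 CPM in neuron replicates 1 and 2, so that both neuron libraries were above both proliferating ones (log2 fold change 0.63, SE 0.43). H1f2 had 214 and 107 CPM against 252 and 212 CPM, with neuron replicate 2 just under proliferating replicate 1 (0.53, SE 0.48). For H1f3 the values were 177 and 80.5 CPM against 160 and 139 CPM, and the highest library was proliferating (0.21, SE 0.51). H1f5 (141 and 94.2 against 183 and 127 CPM) and H1f1 (120 and 45.6 against 125 and 83.8 CPM) overlapped between groups as well. In these 5 genes the difference was larger in pair 2 (median 0.87) than in pair 1 (0.24), and proliferating replicate 2 was the lowest library in each. Unadjusted p-values of the 5 H1 genes in edgeR's test were 0.178 to 0.690.

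H2A and H2B form the dimers on the outside of the nucleosome core, and their genes had medians near 0 in the comparison. The 14 tested H2A genes had a median log2 fold change of 0.10, and the 15 tested H2B genes one of -0.01. H2ac15, the second most abundant H2A gene, had 85.0 and 55.5 CPM in proliferating replicates 1 and 2 and 87.1 and 60.4 CPM in neuron replicates 1 and 2. Its libraries differed by number and hardly by state (0.07, SE 0.47). H2bc4 had the lowest fold change of all members: 13.2 and 12.2 CPM against 8.58 and 7.03 CPM, both neuron libraries below both proliferating ones (-0.70, SE 0.47; edgeR unadjusted p = 0.176). The other H2B gene with separated groups in that direction, H2bc13, had 6.33 and 5.82 against 5.72 and 4.79 CPM.

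H2bc18 differed from that pattern. This H2B gene of the chromosome 3 cluster (chr3:96269700-96270192) was the most abundant histone gene in all 4 libraries, with 15.5% and 22.3% of all histone counts in proliferating replicates 1 and 2 and 30.5% and 25.0% in neuron replicates 1 and 2. Its level was 354 and 345 CPM in proliferating cells (349 ± 6.44, SD, n = 2) and 999 and 578 CPM in neurons (789 ± 298, SD, n = 2). With TMM scaling the proliferating libraries were nearly equal, both neuron libraries were higher, and neuron replicate 1 stood well above neuron replicate 2. The deposited RPKM was 1173 and 498 in proliferating and 2543 and 795 in neuron replicates 1 and 2. On that scale the proliferating libraries were far apart and the groups overlapped. The log2 fold change was 1.18 (SE 0.43; edgeR unadjusted p = 0.0271, adjusted p = 1.00), or 1.5 in pair 1 and 0.75 in pair 2. With the replicate block it was 1.12 (unadjusted p = 0.0201, adjusted p = 0.626). Leaving out 1 library gave 0.69 to 1.52. Per length, its mean of 1252 RPKM compared with 321 RPKM for H1f4, the next gene. It weighed most in the H2B class total. Summed H2B CPM was 2.14 times as high in the neuron library in pair 1 and 1.46 times in pair 2, while the 13 tested and 1 untested H2B genes of chromosome 13 together gave ratios of 1.03 and 0.937. Without H2bc18 the sum over the other 62 histone genes was 1933 and 1202 CPM in proliferating replicates 1 and 2 and 2281 and 1734 CPM in neuron replicates 1 and 2, groups that overlapped.

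**Figure D2:**
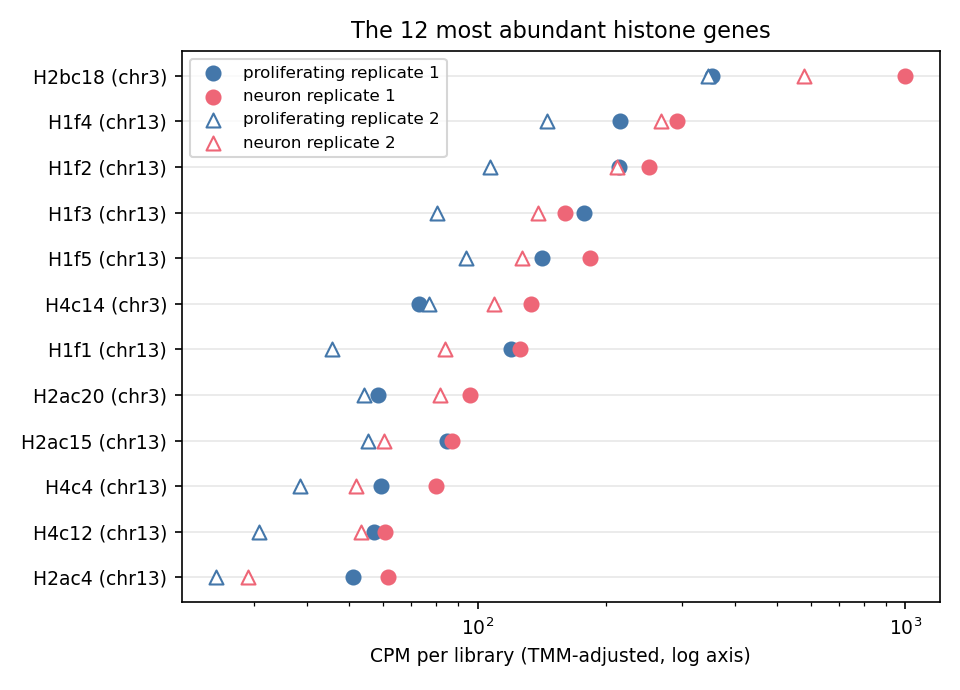
CPM (TMM-adjusted, log axis) of the 12 histone genes with the highest mean, 1 point per library, filled circles for replicate 1 and open triangles for replicate 2. H2bc18 lies at 354 and 345 CPM in proliferating and at 999 and 578 CPM in neuron libraries, while for most genes below it the proliferating replicate 2 library is the lowest.

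H3 and H4 make the tetramer at the centre of the nucleosome. The 10 tested H3 genes had a median log2 fold change of 0.13, with 0.02 in pair 1 and 0.43 in pair 2, and only H3c13 had both neuron libraries above both proliferating ones. H3c8 had both below, at 7.56 and 7.45 CPM in proliferating and 7.40 and 3.77 CPM in neuron replicates 1 and 2, a difference that pair 1 hardly showed. Of the 12 H4 genes, 11 had a positive fold change, with a median of 0.33 (0.14 in pair 1 and 0.48 in pair 2). With library size alone 6 of the 12 were positive and the median was 0.01. Most H4 genes encode the same protein, and their summed level was 381 and 271 CPM in proliferating and 495 and 385 CPM in neuron replicates 1 and 2. Neuron replicate 2 and proliferating replicate 1 were almost equal in that sum. H4c4, the most abundant H4 gene of chromosome 13, had 59.5 and 38.4 against 80.0 and 52.0 CPM (0.43, SE 0.48). The share of each class in the summed RPKM of all histone genes was 21.9% to 28.2% for H1, 12.9% to 16% for H2A, 26.3% to 39.8% for H2B, 4.66% to 6.72% for H3 and 20.5% to 23.9% for H4.

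The members split by cluster, which was noticed after the values had been seen and is described with no test. All 7 tested genes of chromosome 3 were higher in neurons in both pairs, and 6 of them had both neuron libraries above both proliferating libraries. The median log2 fold change of the 7 was 0.69 (0.71 in pair 1 and 0.59 in pair 2). On chromosome 13 the median of 49 tested genes was 0.11 (0.08 and 0.25). There 20 were higher in both pairs and 7 lower in both, and 3 had both neuron libraries above and 3 both below. Over all genes tested, 28.8% were higher and 25.5% lower in both pairs, and 12.9% had both neuron libraries above and 14.5% both below. H4c14 had 73.1 and 76.9 CPM in proliferating and 134 and 109 CPM in neuron replicates 1 and 2 (0.69, SE 0.43). H2ac20 had 58.7 and 54.2 against 95.8 and 81.6 CPM (0.65, SE 0.43), and H2ac21, beside it, 13.2 and 13.7 against 20.7 and 20.3 CPM (0.61, SE 0.45). With TMM scaling the proliferating libraries lay close together in all 3 genes and the neuron libraries stood apart above them. H3c13 showed the same order with 8.13 and 8.26 against 14.1 and 13.2 CPM (0.73, SE 0.46), and H2ac18 had 11.2 and 5.96 against 16.7 and 14.9 CPM (0.87, SE 0.52). H2bc21 was the exception with overlapping groups in CPM, at 9.20 and 6.90 against 13.2 and 8.67 CPM (0.44, SE 0.50). In the deposited RPKM the groups overlapped for all 7 genes, with proliferating replicate 1 above neuron replicate 2 in each. H4c14, for example, had 311 and 142 against 437 and 192 RPKM. Within each pair all 7 were still higher in neurons. Unadjusted p-values of the 6 genes other than H2bc18 were 0.134 to 0.406 in edgeR's test, and none of the 7 passed the adjustment.

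**Figure D3:**
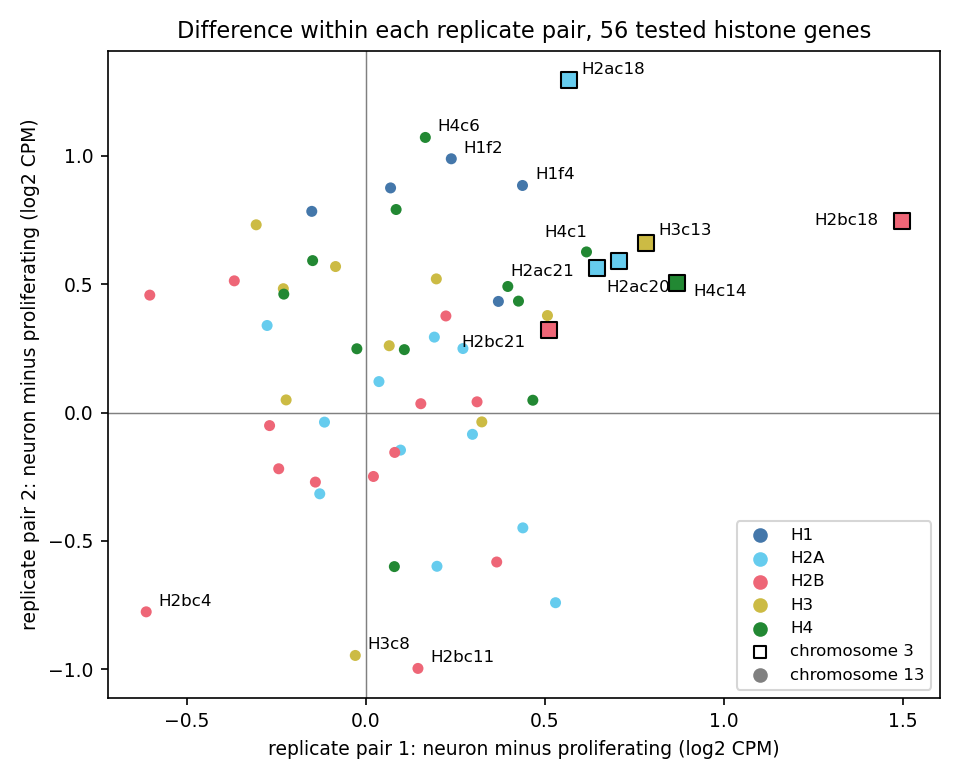
Difference of log2 CPM, neuron minus proliferating, of each of the 56 tested histone genes within replicate pair 1 (horizontal) and pair 2 (vertical). Colours give the class, squares the chromosome 3 cluster and circles chromosome 13. All 7 squares lie in the upper right, where both pairs are positive, while circles lie on all sides of 0.

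The replicate difference also split by cluster. Genes of chromosome 3 differed between replicates 2 and 1 by a median of -0.04 in proliferating cells and -0.23 in neurons, and genes of chromosome 13 by -0.67 and -0.58. As a share of histone counts, H2bc18 left out of both, the chromosome 3 genes made up 9.07% (95% Wilson interval 8.71% to 9.44%) in proliferating replicate 1 and 13% (12.6% to 13.4%) in neuron replicate 1. In the replicate 2 libraries the shares were 13.9% (13.2% to 14.6%) and 14.4% (13.9% to 14.9%), with overlapping intervals. With H2bc18 included, the chromosome 3 share of all histone counts was 23.1% (22.7% to 23.6%) and 39.5% (39.0% to 40.0%) in pair 1 and 33.1% (32.2% to 33.9%) and 35.8% (35.2% to 36.4%) in pair 2. These intervals cover counting error and not the spread between cultures, so the shares are a description of the 4 libraries. Across the alternatives run, the chromosome 3 median stayed between 0.46 and 0.77 and the chromosome 13 median between -0.25 and 0.54. The gap between them was smallest, 0.14, without proliferating replicate 1, and 0.42 to 0.82 in the other alternatives.

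Neighbouring genes that are not histone genes were read for comparison, also after the values had been seen. Within 500 kb of either end of the chromosome 3 cluster lay 24 tested protein-coding genes, with a median log2 fold change of 0.65 (0.67 in pair 1 and 0.81 in pair 2), close to that of the histone genes between them. Of the 24, 21 were above 0 and 17 were higher in both pairs, against 52% and 28.8% of all genes tested. Both neuron libraries were above both proliferating ones for 15, against 12.9% of all genes tested. None of the 24 passed the adjustment in edgeR's test. The gene with the largest fold change was Car14, a membrane carbonic anhydrase, with 124 and 37 counts in proliferating and 497 and 319 counts in neuron replicates 1 and 2 (2.28, SE 0.54; edgeR adjusted p = 0.775). Anp32e, a chaperone that removes the variant H2A.Z from chromatin, lay in the same stretch with 1033 and 447 against 2147 and 1380 counts (1.14, SE 0.45). Over a wider window of 1000 kb the median of 40 genes was 0.41, or 0.16 in pair 1 and 0.85 in pair 2. All 532 tested protein-coding genes of chromosome 3 outside the histone list had a median of 0.17, or 0.05 in pair 1 and 0.47 in pair 2. For chromosome 13 these pair medians were -0.12 and 0.32, and for all chromosomes -0.06 and 0.04. In pair 2 the whole of chromosome 3 was thus raised as well. Around the chromosome 13 stretches, 500 kb held 5 and 3 such genes with medians of 0.28 and -0.11.

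**Figure D4:**
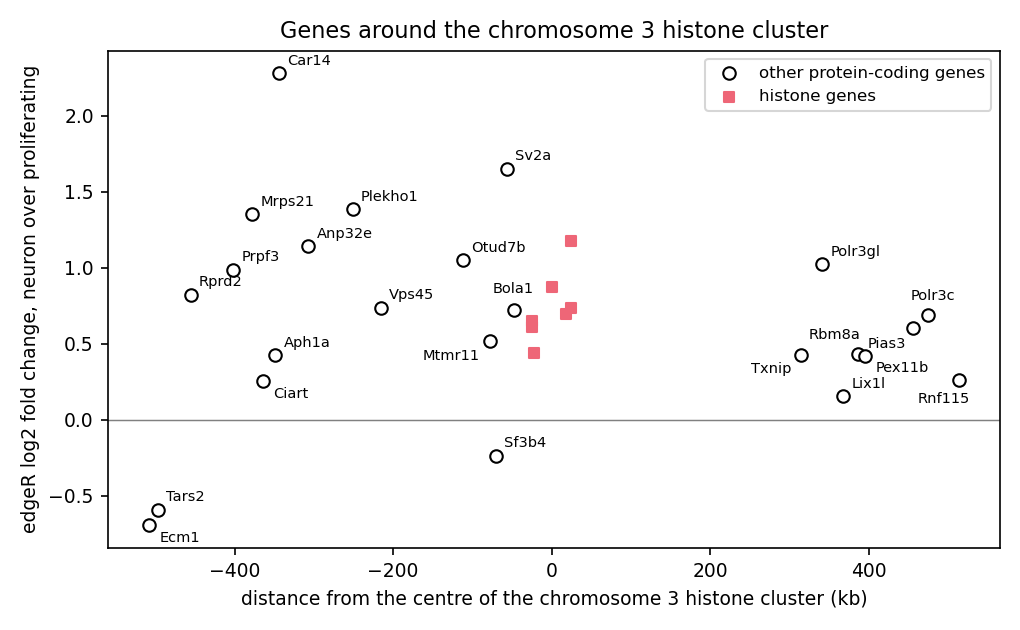
edgeR log2 fold change, neuron over proliferating, of the 7 tested histone genes (squares) and of 24 other tested protein-coding genes (open circles) against their distance in kb from the centre of the chromosome 3 histone cluster. All 7 histone genes and 21 of the 24 other genes lie above 0.

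With TMM scaling, members that share a promoter region did not always share a direction. In 12 places an H2A and an H2B gene were transcribed away from each other from starts 163 to 280 bases apart, and both genes were tested in 9 of these. The sign of the log2 fold change was the same in 4 of the 9 with TMM scaling. Several of these values were near 0, such as -0.001 for H2ac12 (SE 0.50) and -0.017 for H2ac22 (SE 0.54). With library size alone, where 28.4% of all genes tested were above 0, the sign was the same in all 9. In TMM values the farthest apart were H2ac6 (0.14) and H2bc4 (-0.70), while H2ac20 (0.65) and H2bc21 (0.44) were both positive. H2A and H2B genes with the octamer in the promoter had a median of 0.14 over 11 tested genes, and those without it -0.02 over 16 tested genes. H2bc4 and H2bc21 had no RefSeq promoter and entered neither median.

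Near-identical copies limit what can be said of single genes. Reads with several equally good matches cannot be given to a single gene, and how they were counted is not given in the sources used here. In 21 of the 63 genes under 50% of the 150-base windows of the transcript were found in no other gene's transcript, and in 12 genes all windows were unique. H3c14 and H2ac19 had no unique window and 17 counts or fewer per library, and H2ac18 and H3c13 had 13% and 26.3%. The chromosome 3 genes H4c14, H2ac20, H2ac21 and H2bc21 were fully unique and H2bc18 had 66.4%. The 41 tested genes with at least 50% unique windows had a median log2 fold change of 0.20, and the 15 tested genes below that a median of 0.00.

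Genes that act on histone messengers did not pass the test between the groups. Of 19 genes for histone messenger processing, 18 were tested and 0 passed edgeR's adjusted threshold, with 0 at an unadjusted p under 0.05. Their median log2 fold change was 0.16 (0.05 in pair 1 and 0.36 in pair 2). Slbp, which encodes the stem-loop binding protein, had 115 and 37 counts in proliferating and 102 and 64 counts in neuron replicates 1 and 2. The U7 RNA gene Rnu7 had 547 and 228 against 740 and 637 counts, both neuron libraries above in CPM (0.75, SE 0.45). Npat had 242 and 30 against 242 and 122 counts, and Casp8ap2, whose product FLASH joins the U7 complex, 217 and 22 against 340 and 104 counts. Proliferating replicate 2 was the lowest library for each of these 4 genes, as it was for most histone genes. Of 20 histone chaperones and acetyltransferases, 0 passed the adjusted threshold and 1, Anp32e, had an unadjusted p under 0.05, with a median over the list of 0.22 (0.25 and 0.02 in the pairs).

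The genes listed as replication-independent histone genes gave a contrast in level. The 11 genes had 159 and 223 CPM in all in proliferating and 223 and 209 CPM in neuron replicates 1 and 2, and their median was not lower in replicate 2 (difference 0.53 in proliferating cells and 0.09 in neurons). H2ax held 46.1 and 41.8 against 55.1 and 37.0 CPM of these sums, and whether its messenger is independent of S phase was not tested. Counts of replication-dependent genes were 14.4 and 6.93 times those of the replication-independent list in proliferating replicates 1 and 2 and 14.7 and 11.1 times in neuron replicates 1 and 2. The median log2 fold change of the list was 0.06 (0.26 and -0.03 in the pairs), with 0 of 11 called in edgeR's test and 0 at an unadjusted p under 0.05. H1f0, the linker histone of cells that have left the cycle, had 114 and 163 counts in proliferating and 496 and 233 in neuron replicates 1 and 2, a difference that was large in pair 1 (2.13) and small in pair 2 (0.11). The H3.3 genes H3f3a (66 and 37 against 56 and 48 counts) and H3f3b (215 and 267 against 223 and 238 counts) and the H2A.Z gene H2az1 (143 and 109 against 253 and 173 counts) did not pass the test either.

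Genes of the cell cycle, read beside the histone genes, were also counted in every library. All 55 genes of DNA replication and S phase were tested, and their median log2 fold change was 0.32 (0.10 in pair 1 and 0.67 in pair 2). Of these, 29 were higher in neurons in both pairs (28.8% of all genes tested) and 1 was lower in both (25.5% of all genes). Both neuron libraries were above for 10 (12.9% of all genes) and both below for 1 (14.5% of all genes). edgeR called 0 of them, with 0 at an unadjusted p under 0.05. The 27 genes of G2 and mitosis had a median of 0.50 (0.35 and 1.11), with 19 higher and 1 lower in both pairs. Both neuron libraries were above for 3 of them, near the share over all genes, and both below for 1. Of the 27, 0 were called and 0 had an unadjusted p under 0.05. Mki67, the proliferation antigen Ki-67, had 1133 and 81 counts in proliferating and 1408 and 459 counts in neuron replicates 1 and 2, and Top2a, the topoisomerase of dividing cells, 2035 and 162 against 2599 and 1285 counts. Messengers of dividing cells were thus counted in both neuron libraries, and proliferating replicate 2 was the lowest of the 4. The G2 and mitosis genes were lower in replicate 2 by a median of -1.5 in proliferating cells and -0.69 in neurons, and the S phase genes by -0.46 and -0.23. Of 12 genes of cell cycle exit, 11 were tested with a median of 0.43 (-0.12 and 0.39), 0 called and 0 at an unadjusted p under 0.05. Among them Cdkn1b, which encodes the inhibitor p27, had both neuron libraries above (0.87, SE 0.44) and Cdkn1a, which encodes p21, both below (-1.33, SE 0.82). The part of the share of cycling cells in the histone values was not tested.

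**Figure D5:**
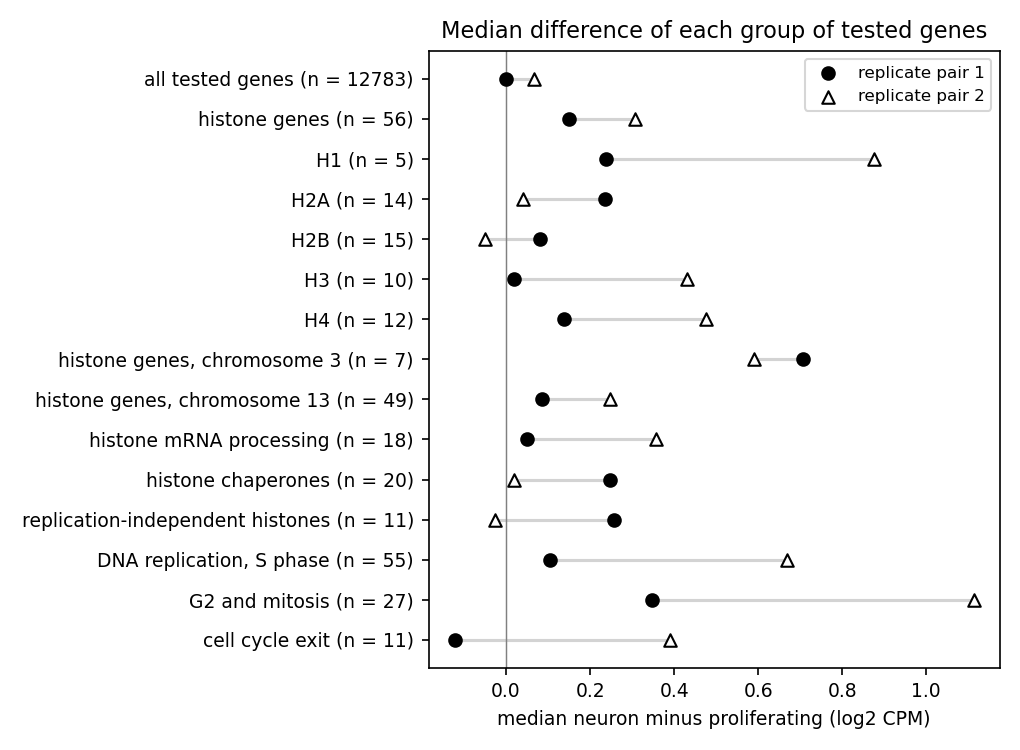
Median difference of log2 CPM, neuron minus proliferating, for groups of tested genes within replicate pair 1 (filled circles) and pair 2 (open triangles). The chromosome 3 histone genes lie at 0.71 and 0.59, the chromosome 13 histone genes at 0.08 and 0.25, and the genes of G2 and mitosis at 0.35 and 1.11.

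A few members stood apart in kind. H2ac1 and H2bc1, histone genes known from the testis, had 5 to 10 and 4 to 23 counts per library, while the male germ cell markers were nearly absent. Their annotated spans overlap a RefSeq gene, Gm33516, and that of H2bc6 overlaps Gm33387. H2bc4, H2bc6, H2bc21, H2bc22 and H2bc23 have long or several gene models, so their deposited RPKM may understate their level. The length is the same in every library and cancels in their ratios. Which gene model was expressed in each group was not tested.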

How the data were processed

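RNA of 4 libraries, 2 of proliferating iMOP cells and 2 of neurons, was sequenced after ribosomal RNA depletion with a stranded kit, per the labels' protocols. For every library the authors deposited a table of raw counts and a table of RPKM. Each deposited RPKM value is the gene's count scaled by the library's column sum (the 18S row is part of it) and by a length that is the same in all 4 libraries. The submitters' processing notes name mm10, HISAT2, SAMtools, featureCounts, DESeq2 and deepTools 3.4.3. Their settings, the use of strand and the treatment of reads with several matches are not given in the sources used here. Total counts per library and Wilson intervals stand in the results, and those intervals reflect counting error alone.

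Titles gave the group and the replicate number. The counts were tested with edgeR 4.0.16 in R 4.3.3 (TMM, filterByExpr with a minimum count of 10 and a minimum total of 15, glmQLFit and glmQLFTest, group as the single term), with Benjamini-Hochberg adjustment over 12783 genes, a threshold of 0.05, two-sided. Differences within a pair are log2 CPM with a prior count of 2. Both replicate 2 titles say set 2, so the numbers were taken to pair the libraries, although what a set is was not stated. Deviations of same-numbered libraries from their group means correlated across genes with r = 0.33. Alternatives were RLE factors, library size alone, the 18S row left out, no gene filter, CPM of at least 1 in 2 libraries, DESeq2 1.42.0, the replicate block, each library left out, limma 3.58.1 on log2 RPKM with pseudocounts of 1 and 0.1, and sums without H2bc18 or from RPKM. The scripts were tested on simulated counts. Histone genes outside the newer name pattern were not members.

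Any member could be named, with full values for the 10 of highest mean CPM and any with an unadjusted p under 0.05, as could any gene of 6 gene lists and 6 marker lists. H2ac18, H2ac21, H3c13, H2bc21, H2bc4, H3c8 and H2bc13, and Car14 among the neighbours, were chosen after their values were seen. The members and lists were chosen with earlier results of these data known. Sequences and coordinates are from RefSeq GRCm38.p6 and GENCODE M21. Uniqueness was counted over 150-base windows of the longest transcript.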

Additional observations from a re-analysis of the deposited data

How the results depend on the processing

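Genes called overall went from 0 to 2 with library size alone, 163 with no gene filter, 3 with the replicate block, 57 with DESeq2, and 1 and 2 with limma on log2(RPKM + 1) and log2(RPKM + 0.1). Leaving out proliferating replicate 1 or 2 gave 113 and 39, and leaving out neuron replicate 1 or 2 gave 30 and 18, where the lone library of a group is assumed to vary like the others. Histone genes called stayed at 0 in all of these, with a smallest adjusted p of 0.185 to 1.00. The replicate block changed no histone gene's call. The median log2 fold change of the histone genes was -0.17 with library size alone, -0.058 and -0.055 in the limma fits, and -0.20 to 0.57 with 1 library left out. Of the 10 most abundant members, 7 kept their sign in every setting run. H2ac15 turned to -0.25 with library size alone and -0.15 in both limma fits, and ranged from -0.25 to 0.38 with 1 library left out. H1f3 turned to -0.24 and H1f1 to -0.091 with library size alone, with ranges of -0.23 to 0.86 and -0.17 to 1.17 when 1 library was left out. The cause of these changes was not tested. The summed histone ratio stayed positive, at 0.24 to 0.83 with 1 library left out and 0.36 without H2bc18. The biological coefficient of variation was 0.456, which with 2 libraries per group limits the test.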

Other observations

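Some histone genes fell outside the newer name pattern although an older symbol of theirs follows the replication-dependent scheme. Among them H4f16 (older symbol Hist4h4, chromosome 6), which encodes H4, had 60.5 and 48.6 CPM in proliferating and 90.7 and 80.3 CPM in neuron replicates 1 and 2. Both neuron libraries were above both proliferating libraries, and the log2 fold change was 0.65 (SE 0.43; edgeR unadjusted p = 0.177), near the values of the chromosome 3 cluster though it lies on another chromosome. The most abundant, the pseudogene H2af-ps2 (older symbol Hist1h2al, chromosome 13), had 70.9 and 74.5 against 114 and 80.5 CPM (0.42, SE 0.44). H1f6, the testis linker histone, had 2 counts in proliferating replicate 1 and 0 elsewhere, and H2aw had 0 counts in all 4 libraries. H2bu2 and H4bc24 had 2 counts or fewer per library and H2bu1-ps 1 to 10.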
